A study of Homo sapiens with 15 samples.

Results

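Cancer-testis antigens are proteins whose genes are normally transcribed in the germ cells of the testis and silent in most other adult tissues, and which many tumours express again. Most of them lie in multigene families on the X chromosome (MAGE-A, MAGE-B, MAGE-C, SSX, PAGE, GAGE, XAGE, CT45, CT47 and CTAG), where DNA methylation of the promoter is known to keep them off in somatic cells. MAGE proteins bind RING-type ubiquitin ligases, and several members are targets of cancer immunotherapy. The genes described here were chosen by name: the families above plus SAGE1, CTCFL, PRDM9, PRAME, DDX43, DPPA2, SYCP1, SPANXB1, TEX14 and BRDT. Of 104 such symbols, 32 were listed in the knockout table among 17769 genes and 104 in the resistance table among 60510. A member entered the tests when its log2 CPM (reads scaled to library size) was at least -1 in 3 or more libraries, which left 29 members of 17039 genes in the knockout table and 25 of 16503 in the resistance table, 30 in either and 24 in both.

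Gene expression was measured by mRNA sequencing in K562, a BCR-ABL1-positive chronic myeloid leukemia cell line, in 5 groups of 3 libraries. The knockout table holds an empty vector control (EV), HSP90α-KO (HSP90AA1 knocked out) and HSP90β-KO (HSP90AB1 knocked out), the cytosolic heat shock protein 90 chaperones. These cells carry lentiviral Cas9, the knockouts with a guide against the gene, and per the labels were sorted and selected as single clones, so a difference may belong to a clone; the labels do not say which clone a library came from. The resistance table holds PUHr cells, grown under rising concentrations of the HSP90 inhibitor PU-H71 and picked as clones, and a parental clone kept in the solvent DMSO in parallel. The study calls the replicates independent, but neither it nor the labels say what was repeated, so p-values measure the spread between the 3 libraries of a group. The 2 tables were normalised separately, and no test crosses them. The member list was drawn up with earlier results of these data known, and levels then decided which members were tested.

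Libraries held 19594381 to 26216730 reads, and 1 read was worth 0.0381 to 0.0518 CPM. HSP90AA1 averaged 704 CPM in EV and 90.4 CPM in HSP90α-KO cells (limma log2 fold change -2.96, adjusted p = 2.64e-30), and HSP90AB1 2806 CPM in EV and 1913 CPM in HSP90β-KO cells (-0.55, adjusted p = 1.34e-15). The erythroid transcription factors GATA1 and KLF1, which K562 expresses, averaged 148 to 283 CPM and 36.5 to 111 CPM over the 5 groups. HBG1, a fetal globin, averaged 57.8, 34.8 and 59.9 CPM in EV, HSP90α-KO and HSP90β-KO and 324 and 166 CPM in parental and PUHr cells, and the embryonic globin HBE1 had at most 4 reads in any library of the resistance table. Of 10 germ cell markers, only SYCP3 reached 1 CPM in any group, with a summed level of all listed markers of 1.81 to 2.53 CPM, and DDX4, PRM1 and PRM2 had 0 reads in the parental libraries.

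Of the 104 members in the resistance table, 45 had 0 reads in all 6 libraries, among them BRDT, DPPA2, DDX43, SPANXB1, all 12 CT47A genes and all 5 XAGE genes, and another 34 had reads but stayed under the threshold. SYCP1, a protein of the synaptonemal complex, had 1 read in total. The members just inside the threshold were MAGEB16 at -0.82, CT45A5 at -0.82 and PAGE2B at -0.37 in the knockout table (log2 CPM of the library that sets their entry) and MAGEB6 at -0.87 and PAGE1 at -0.85 in the resistance table. Just outside were MAGEA11 at -1.08 in the knockout table and TEX14 at -1.33 in the resistance table. Of the 30 tested members, 25 lie on the X chromosome and 1 each on chromosomes 1, 5, 17, 20 and 22. The rule also takes SSX2IP, a widely expressed centrosomal protein that is no SSX gene, and the non-coding RNAs MAGEA4-AS1 and MAGEA6-DT. In summed levels, the listed members made up 1488 to 1501 CPM in EV, 1263 to 1288 in HSP90α-KO, 1645 to 1671 in HSP90β-KO, 1745 to 1782 in parental and 1453 to 1534 CPM in PUHr libraries.

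PRAME, a leucine-rich repeat protein recognised by T cells in melanoma and leukemia, was the most abundant member per exon length in every group (107 to 125 CPM per kilobase, group means). Its level was 411, 424 and 404 CPM in EV, 411, 404 and 407 in HSP90α-KO, 440, 428 and 417 in HSP90β-KO, 479, 473 and 460 in parental and 492, 453 and 485 CPM in PUHr libraries. Each group overlapped the control of its table, and PRAME passed in none of the comparisons with a control (log2 fold changes -0.02, 0.05 and 0.02, adjusted p = 0.592, 0.16 and 0.657). Below it, the order per length was MAGEA4, MAGEA3, MAGEA12, PRDM9 and MAGEA6 in EV cells, of which the last 3 were within 36.7 to 37.1 CPM per kilobase, and MAGEA3, MAGEA6, MAGEA12 and MAGEA1 in parental cells.

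**Figure D1:**
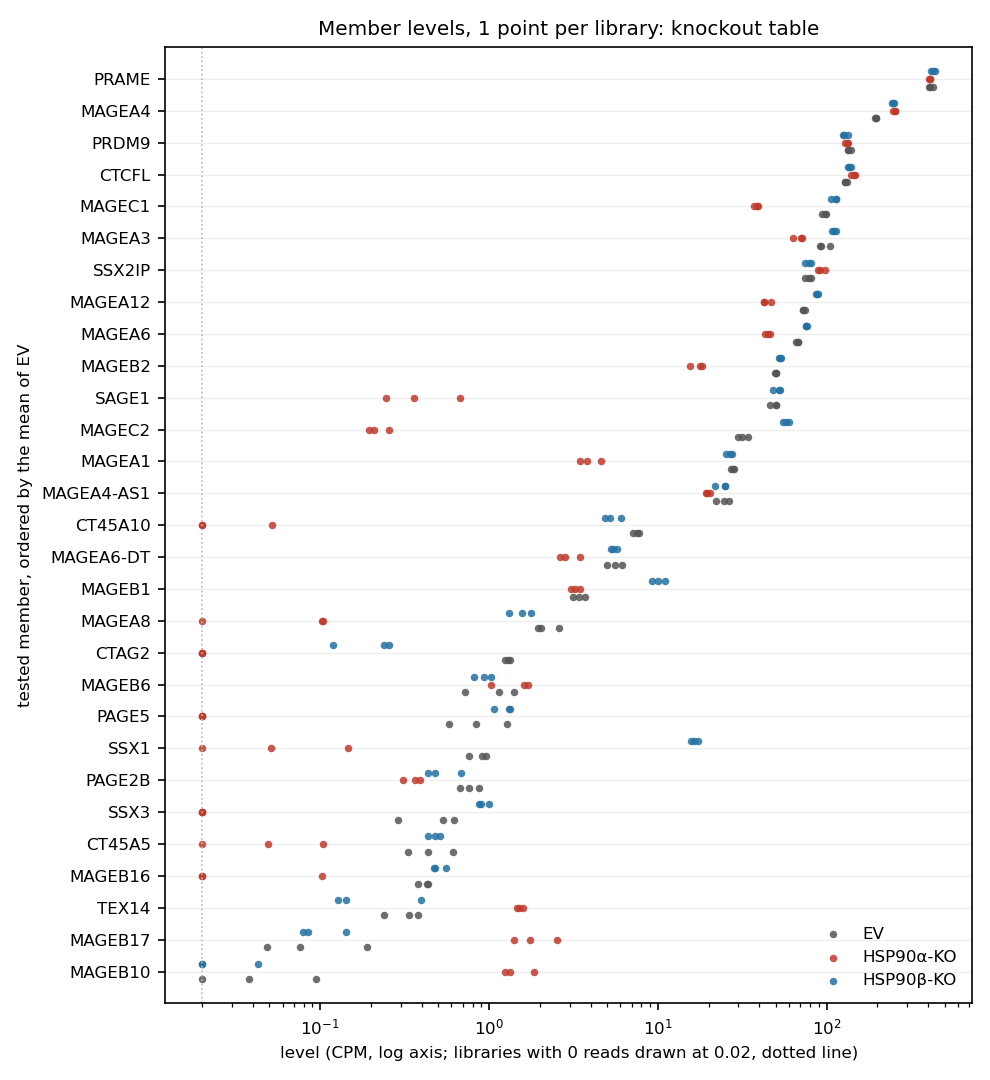
Level of each tested member in the knockout table, 1 point per library, on a log axis in CPM. EV is grey, HSP90α-KO red and HSP90β-KO blue, and libraries with 0 reads are drawn at 0.02 CPM. SAGE1, MAGEC2, CT45A10 and MAGEA8 stand far to the left in HSP90α-KO libraries, and SSX1 far to the right in HSP90β-KO libraries.

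In HSP90α-KO cells SAGE1, CT45A10, MAGEC2, MAGEA8, MAGEA1, MAGEB2, MAGEC1, SSX1 and PAGE5 were lower than in EV. In all, 13 of 29 tested members were lower and 3 higher (limma, Benjamini-Hochberg adjusted p below 0.05 with a change of more than 1 on the log2 scale), where 5.01% and 5.32% of all tested genes were. The median log2 fold change was -0.90 over the tested members and -0.01 over all genes. The libraries of the groups did not overlap for 25 of the 29 (57.3% of all genes), and 25 passed on the adjusted p without the fold (54.2%). All members of the MAGE-C, CT45 and CTAG families that were tested were lower (2, 2 and 1), as were 2 of 8 MAGEA rows, 2 of 6 MAGEB, 2 of 3 SSX, 1 of 2 PAGE and 1 of 5 single genes. The MAGE-C, CT45 and CTAG genes lie beyond 130 Mb on X. There, 43.6% (130 to 150 Mb) and 39.1% (beyond 150 Mb) of the genes that are no members were lower too. Of the SSX rows, SSX1 and SSX3 were lower, and SSX2IP, which is no SSX gene, was not called. Of the 29, 7 reached the threshold in all libraries of 1 group only: MAGEB10, MAGEB17 and TEX14 through HSP90α-KO, CTAG2 through EV, and CT45A5, MAGEB16 and SSX3 through HSP90β-KO. For these the filter favoured a difference between groups, and their values are given without a p. Their read ratios, with intervals or lower bounds, are likewise no test of a difference. They make up all 3 higher members and 4 of the 13 lower ones, so nothing is read from the counts or the median.

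The deepest losses were at SAGE1 with its neighbour CT45A10 and at MAGEC2. SAGE1, an X-linked sarcoma antigen, was at 50.4, 46.1 and 50.2 CPM in EV, 52.5, 53.3 and 48.4 in HSP90β-KO, and 0.244, 0.673 and 0.359 CPM in HSP90α-KO libraries. That is 25 reads in 3 libraries against 3334 in EV (116-fold lower, exact 95% interval 78.6 to 180, counting error only). CT45A10, of the CT45 family of ovarian and other cancer antigens, was at 7.75, 7.52 and 7.09 CPM in EV, 5.198, 4.86 and 6.06 in HSP90β-KO and 0, 0.0518 and 0 CPM in HSP90α-KO libraries. limma gave log2 fold changes of -6.65 ± 0.16 (SE) for SAGE1 and -6.16 ± 0.20 for CT45A10 in HSP90α-KO against EV (adjusted p = 3.57e-22 and 3.19e-19). In HSP90β-KO neither passed (0.07, adjusted p = 0.775, and -0.47, adjusted p = 0.0765). CT45A10 is uncertain as a single gene, since 39.2% of its 76-base windows are unique in the transcriptome and 54.9% occur in CT45A5.

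SAGE1 and CT45A10 are transcribed away from each other from start sites 272 bases apart on chromosome X (RefSeq, GRCh38.p14), so the promoter windows at these starts, 250 bases before to 50 after the start, share 229 bases. The pair is shown because both genes lost their reads together in HSP90α-KO and, below, in PUHr cells. The capitals mark CG dinucleotides, the sites of DNA methylation, of which the SAGE1 window holds 14 and the overlapping CT45A10 window 18, against a median of 14 over 35116 RefSeq windows. CT45A10 has another RefSeq window, at a start inside its gene, with 9 CG and no base shared with that of SAGE1. In GENCODE the gene models overlap on opposite strands (SAGE1 from 135890182 and CT45A10 up to 135893444), with 0 exon bases in common.
SAGE1 (chrX:135893466-135893765, + strand): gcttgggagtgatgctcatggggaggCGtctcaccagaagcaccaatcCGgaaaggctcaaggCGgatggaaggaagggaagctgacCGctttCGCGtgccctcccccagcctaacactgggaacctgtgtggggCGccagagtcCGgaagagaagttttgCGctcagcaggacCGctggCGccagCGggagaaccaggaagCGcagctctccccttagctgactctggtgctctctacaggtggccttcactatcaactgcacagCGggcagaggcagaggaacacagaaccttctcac
The motif CCGGAA, searched on both strands, occurs 2 times in this window and in 17.2% of all windows. Its letters include a CG, so it overlaps the capitals.

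MAGEC2 had the smallest adjusted p of the members in HSP90α-KO against EV. This MAGE protein, partner of the ubiquitin ligase TRIM28, was at 31.6, 29.9 and 34.2 CPM in EV, 57.2, 59.8 and 54.9 in HSP90β-KO and 0.195, 0.207 and 0.257 CPM in HSP90α-KO libraries. The 3 groups did not overlap. The log2 fold change was -6.69 ± 0.095 in HSP90α-KO against EV (adjusted p = 5.07e-27) and 0.84 ± 0.095 in HSP90β-KO, below the fold threshold (adjusted p = 6.05e-08). MAGEC1, 292968 bases away, fell less, from 97.9, 99.1 and 93.5 to 38.5, 36.9 and 39.3 CPM (-1.34 ± 0.040, adjusted p = 4.31e-20), and stood at 113, 113 and 107 CPM in HSP90β-KO libraries. The MAGEC2 promoter window is shown as that of a gene which went from 621 to 896 reads per library in EV to 4 or 5. It holds 10 CG.
MAGEC2 (chrX:142205241-142205540, - strand): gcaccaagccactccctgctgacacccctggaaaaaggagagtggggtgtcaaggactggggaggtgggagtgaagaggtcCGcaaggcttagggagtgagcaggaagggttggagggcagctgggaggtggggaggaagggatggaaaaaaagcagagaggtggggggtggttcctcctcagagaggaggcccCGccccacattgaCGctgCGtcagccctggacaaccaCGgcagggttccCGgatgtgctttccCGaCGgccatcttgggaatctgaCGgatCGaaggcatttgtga

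Among the MAGE-A genes the losses were uneven. MAGEA8 was at 2.04, 2.60 and 1.94 CPM in EV, 1.57, 1.32 and 1.78 in HSP90β-KO and 0, 0.104 and 0.103 CPM in HSP90α-KO libraries (-3.92 ± 0.29 against EV, adjusted p = 7.24e-12, and -0.50 with a pseudocount of 5 CPM, under the fold threshold). MAGEA1, the founding MAGE antigen, fell from 28.3, 27.1 and 27.9 to 3.47, 3.83 and 4.62 CPM (-2.79 ± 0.082, adjusted p = 3.21e-20), with 25.3, 27.4 and 26.6 CPM in HSP90β-KO. MAGEA4 went the other way without passing the fold threshold: 195, 194 and 197 CPM in EV, 255, 254 and 248 in HSP90α-KO and 250, 247 and 243 in HSP90β-KO libraries (0.37 and 0.34, adjusted p = 2.45e-11 and 3.81e-10). MAGEA3, MAGEA6, MAGEA12 and MAGEA6-DT had log2 fold changes of -0.49 to -0.90 in HSP90α-KO, under the fold threshold. MAGEA3 and MAGEA6 share 41.2% of the windows of MAGEA3, and reads cannot be told apart there.

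In the MAGE-B family, 2 neighbours moved apart. MAGEB2 was at 49.1, 50.03 and 49.9 CPM in EV, 52.2, 52.9 and 53.9 in HSP90β-KO and 17.7, 18.2 and 15.5 CPM in HSP90α-KO libraries (-1.54 ± 0.054, adjusted p = 1.13e-18). MAGEB1, which starts 23626 bases from the end of MAGEB2, was at 3.71, 3.42 and 3.13 CPM in EV, 3.08, 3.47 and 3.23 in HSP90α-KO and 10.01, 9.22 and 11.0 CPM in HSP90β-KO libraries (1.54 ± 0.12 in HSP90β-KO, adjusted p = 4.51e-11, 0.84 and under the fold threshold with a pseudocount of 5 CPM, and -0.07, adjusted p = 0.665, in HSP90α-KO). Each of the pair thus changed in the knockout in which the other did not pass. MAGEB10 and MAGEB17 stood near 0 in EV and HSP90β-KO. MAGEB10 was at 1.85, 1.24 and 1.33 CPM in HSP90α-KO, with 88 reads against 3 in EV (33.7-fold, interval 11.1 to 166). MAGEB17 was at 2.54, 1.40 and 1.75 CPM there, with 113 reads against 7 (18.5-fold, interval 8.70 to 47.1). MAGEB17 shares 539 exon bases with a gene on the opposite strand (ENSG00000238178), whose log2 fold change in HSP90α-KO was 3.25 beside 3.37 for MAGEB17. Reads of the pair may not be told apart, since the strand setting of the counting is not given in the sources used here.

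SSX1, a transcriptional corepressor that synovial sarcoma fuses to SS18, moved in opposite directions in the knockouts, which share the EV control. Levels were 0.761, 0.964 and 0.915 CPM in EV, 0.146, 0 and 0.0513 in HSP90α-KO and 17.3, 16.5 and 15.7 CPM in HSP90β-KO libraries, and no groups overlapped. The log2 fold change was 4.10 ± 0.26 in HSP90β-KO against EV (adjusted p = 9.1e-13), -2.74 ± 0.26 in HSP90α-KO against EV (adjusted p = 8.74e-10) and -6.84 in HSP90α-KO against HSP90β-KO (adjusted p = 2.96e-18). With a pseudocount of 1 CPM the change in HSP90α-KO against EV was -0.82, under the fold threshold. In reads, HSP90β-KO was 18.6-fold above EV (interval 14.4 to 24.6). SSX3, 78983 bases away, had 33 reads in EV, 0 in HSP90α-KO and 64 in HSP90β-KO. The promoter window of SSX1 is shown for the gain. It holds 5 CG, at percentile 29.6 of all windows.
SSX1 (chrX:48255142-48255441, + strand): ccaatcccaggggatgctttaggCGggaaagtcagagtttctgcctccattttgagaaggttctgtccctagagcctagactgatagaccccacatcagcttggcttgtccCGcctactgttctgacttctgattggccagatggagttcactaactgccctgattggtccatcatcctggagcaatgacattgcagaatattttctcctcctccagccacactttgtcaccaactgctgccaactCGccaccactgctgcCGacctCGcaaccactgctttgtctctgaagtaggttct

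Low members with 0 reads in HSP90α-KO were CTAG2, PAGE5 and SSX3. CTAG2 (LAGE-1, related to NY-ESO-1) was at 1.33, 1.25 and 1.30 CPM in EV, 0.238, 0.256 and 0.119 in HSP90β-KO and 0 in the HSP90α-KO libraries, at least 25.6-fold lower (3 reads over the group). PAGE5, of the GAGE-related PAGE family, was at 1.28, 0.578 and 0.839 CPM in EV, 1.34, 1.07 and 1.31 in HSP90β-KO and 0 in HSP90α-KO libraries, at least 17.7-fold lower (-0.91 with a pseudocount of 1 CPM, under the fold threshold). SSX3 was at least 9.59-fold lower. CT45A5 and MAGEB16, both under 1 CPM in every library, had 32 and 28 reads in EV, 33 and 35 in HSP90β-KO and 3 and 2 in HSP90α-KO. MAGEB6 and PAGE2B passed in neither knockout against EV, with log2 fold changes of 0.40 and -0.95 in HSP90α-KO. TEX14, which holds open the bridges between germ cells, was at 0.238, 0.337 and 0.381 CPM in EV, 0.143, 0.128 and 0.396 in HSP90β-KO and 1.46, 1.502 and 1.59 CPM in HSP90α-KO libraries, and it shares 240 exon bases with SEPTIN4-AS1 on the opposite strand.

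Of 29 tested members, 2 were higher (SSX1 and MAGEB1) and 1 lower (CTAG2, which passed the filter through EV alone) in HSP90β-KO than in EV, against 1.83% and 2.65% of all tested genes, and the median log2 fold change was 0.06 against 0.00 over all genes. For 15 of the 29 the libraries did not overlap (46.6% of all genes), and 9 passed on the adjusted p alone (34.4%). Directly against HSP90β-KO, HSP90α-KO cells had 14 members lower and 3 higher (5.57% and 7.14% of all genes), with MAGEB1 added to the 13 that were lower against EV. All 3 higher and 4 of these 14 lower members passed the filter through 1 group alone. With a pseudocount of 5 CPM MAGEB1 was at -0.87 between the knockouts, under the fold threshold. With 1 CPM CTAG2 was at -0.93 in HSP90β-KO against EV, also under it. Between the knockouts 26 of 29 did not overlap (63.8% of all genes), and 26 passed on the adjusted p alone (59.9%). CTCFL (BORIS), the germline paralogue of the insulator protein CTCF, was at 132, 129 and 129 CPM in EV, 148, 145.2 and 140 in HSP90α-KO and 135, 133 and 139 in HSP90β-KO libraries. Its log2 fold changes were 0.15 and 0.06 (limma adjusted p = 0.000412 and 0.151), under the fold threshold, and neither knockout overlapped EV. PRDM9, the histone methyltransferase that places meiotic recombination sites, was at 134, 135 and 140 CPM in EV, 134, 133 and 129 in HSP90α-KO and 125, 127 and 134 in HSP90β-KO libraries (-0.04 and -0.08, adjusted p = 0.298 and 0.0784).

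**Figure D2:**
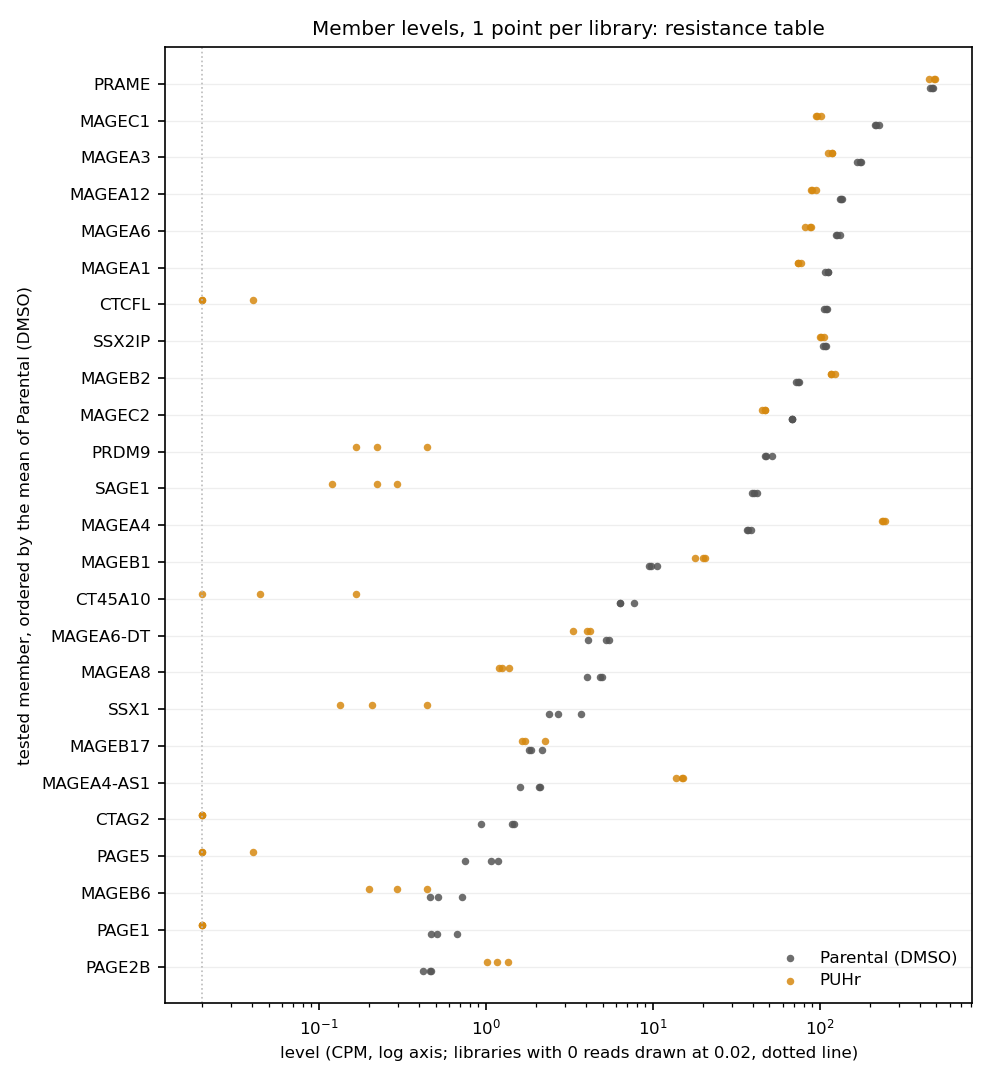
Level of each tested member in the resistance table, 1 point per library, on a log axis in CPM. Parental libraries are grey and PUHr libraries orange, and 0 reads are drawn at 0.02 CPM. CTCFL, PRDM9 and SAGE1 lie at 0.442 CPM or below in PUHr and at 39.4 CPM or more in parental libraries, and MAGEA4 lies at 237 CPM or above in PUHr.

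In PUHr cells CTCFL and PRDM9 were at 0.442 CPM or below in every library, and MAGEA4 rose. Against parental, 10 of 25 tested members were lower and 3 higher, where 4.69% and 5.37% of all tested genes were, and the median log2 fold change was -0.57 against 0.00 over all genes. Of the 10, 8 passed the filter on low values through the parental group alone, so nothing is read from these counts or from the median. The other 2 were MAGEA8 and MAGEC1. For 21 of the 25 the groups did not overlap (58.5% of all genes), and 20 passed on the adjusted p alone (51.4%). Of the 25, 9 reached the threshold in all parental libraries and in no complete PUHr group, so the filter favoured a difference (CT45A10, CTAG2, MAGEB6, PAGE1, PAGE5, SSX1, CTCFL, PRDM9 and SAGE1). They are described by levels and read ratios and without a p. Intervals and lower bounds of these ratios show counting error in genes picked for a difference, and are no test of it. MAGEB6, which was not called, had 17, 11 and 11 reads in parental and 5, 7 and 10 in PUHr libraries. CTCFL had 2608, 2536 and 2317 reads in parental and 1, 0 and 0 reads in PUHr libraries, or 110, 106 and 109 against 0.0402, 0 and 0 CPM (7729-fold, interval 1387 to 305316). PRDM9 was at 47.8, 46.9 and 51.6 CPM in parental and 0.442, 0.167 and 0.222 CPM in PUHr libraries (174-fold, interval 112 to 284). Both stayed above 100 CPM in all 9 libraries of the knockout table.

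Neither gene is on the X chromosome. The promoter windows with the most CG of each are shown because both genes went from 1100 to 2608 reads per library to 11 or fewer. CTCFL has 3 RefSeq windows (19, 15 and 2 CG) and PRDM9 has 1 (17 CG). The motif GGGCGG, searched on both strands and holding a CG itself, is present 3 times in each of the windows below, and in 45.0% of all windows.
CTCFL (chr20:57524648-57524947, - strand): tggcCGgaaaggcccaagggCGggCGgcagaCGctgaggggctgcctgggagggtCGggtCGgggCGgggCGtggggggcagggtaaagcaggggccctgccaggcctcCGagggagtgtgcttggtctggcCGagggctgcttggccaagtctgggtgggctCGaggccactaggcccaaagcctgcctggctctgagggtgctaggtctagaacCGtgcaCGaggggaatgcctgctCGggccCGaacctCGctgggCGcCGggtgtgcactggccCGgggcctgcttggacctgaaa
PRDM9 (chr5:23507359-23507658, + strand): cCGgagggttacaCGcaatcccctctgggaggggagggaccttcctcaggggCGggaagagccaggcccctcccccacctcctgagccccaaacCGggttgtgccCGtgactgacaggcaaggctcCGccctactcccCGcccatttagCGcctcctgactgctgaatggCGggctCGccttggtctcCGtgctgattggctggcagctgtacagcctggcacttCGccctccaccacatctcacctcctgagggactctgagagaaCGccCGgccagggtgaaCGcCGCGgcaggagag

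SAGE1 and CT45A10 were again low together in PUHr cells. SAGE1 was at 42.4, 40.6 and 39.4 CPM in parental and 0.120, 0.293 and 0.222 in PUHr libraries (194-fold, interval 117 to 347). CT45A10 was at 6.34, 7.72 and 6.33 CPM in parental and 0, 0.167 and 0.0445 in PUHr libraries (97.2-fold, interval 41.3 to 301). CTAG2 and PAGE1 had 0 reads in PUHr, at least 30.7-fold and 13.1-fold lower than in parental. PAGE5 had 69 reads in parental and 1 in PUHr (71.5-fold, interval 12.4 to 2864), and SSX1 fell from 2.71, 3.73 and 2.39 to 0.442, 0.209 and 0.133 CPM (11.1-fold, interval 6.94 to 18.9). These members passed the filter through the parental group, so nothing is read from the separation of the groups.

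MAGEA4 rose in PUHr cells. It was at 36.6, 37.1 and 38.6 CPM in parental and 245, 237 and 240 CPM in PUHr libraries (log2 fold change 2.68 ± 0.032, adjusted p = 1.05e-16). The antisense RNA MAGEA4-AS1, which overlaps 186 exon bases of MAGEA4 on the opposite strand, rose from 2.11, 2.10 and 1.59 to 14.9, 15.3 and 13.7 CPM (2.88 ± 0.12, adjusted p = 7e-11). Reads of the pair may not be told apart, since the strand setting is not given in the sources used here. PAGE2B rose from 0.465, 0.419 and 0.469 to 1.37, 1.17 and 1.02 CPM (1.24 ± 0.23, adjusted p = 0.000328, and 0.59 with a pseudocount of 1 CPM, under the fold threshold). PAGE2B shares 37.4% of its windows with PAGE2.

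Other MAGE genes moved less in PUHr. MAGEC1 fell from 226, 214 and 216 to 101, 95.0002 and 96.4 CPM (-1.17 ± 0.032, adjusted p = 6.9e-13) and MAGEA8 from 4.82, 4.95 and 4.03 to 1.20, 1.38 and 1.25 CPM (-1.78 ± 0.15, adjusted p = 1.42e-07, and -0.61 with a pseudocount of 5 CPM, under the fold threshold). MAGEC2 was at 68.6, 68.0 and 68.2 CPM in parental and 46.8, 44.8 and 47.0 in PUHr libraries (-0.56, adjusted p = 5.84e-09), under the fold threshold. MAGEA1, MAGEA3, MAGEA6 and MAGEA12 had log2 fold changes of -0.57 to -0.55. MAGEB1 and MAGEB2 had log2 fold changes of 0.96 and 0.69, also under the fold threshold. MAGEB17 was at 1.86, 1.80 and 2.16 CPM in parental and 1.73, 2.26 and 1.65 in PUHr libraries (-0.05, adjusted p = 0.815). Both groups lie near its HSP90α-KO level and above its EV level, but the tables were normalised separately and no test was made.

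HSP90α-KO against EV and PUHr against parental share no libraries. Of the 13 members lower in HSP90α-KO and the 10 lower in PUHr, 7 were lower in both (CT45A10, CTAG2, MAGEA8, MAGEC1, PAGE5, SAGE1 and SSX1). Over the 24 members tested in both tables, that is 70.0% of the 10 lower in HSP90α-KO and 77.8% of the 9 lower in PUHr. Over all 15735 genes tested in both tables, 115 were lower in both, 16.5% and 16.7% of the lists. Of the 7, 5 entered the resistance table through the parental group alone, so the overlap is a description. Among members tested in both, MAGEC2, MAGEA1 and MAGEB2 were called lower in HSP90α-KO and not in PUHr, and MAGEA4, MAGEA4-AS1 and PAGE2B higher in PUHr and not in HSP90α-KO. MAGEB17 in the knockout table, and CTCFL and PRDM9 in the resistance table, passed the filter through 1 group alone, and only their levels, given above, are described. The difference between the comparisons was not tested.

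**Figure D3:**
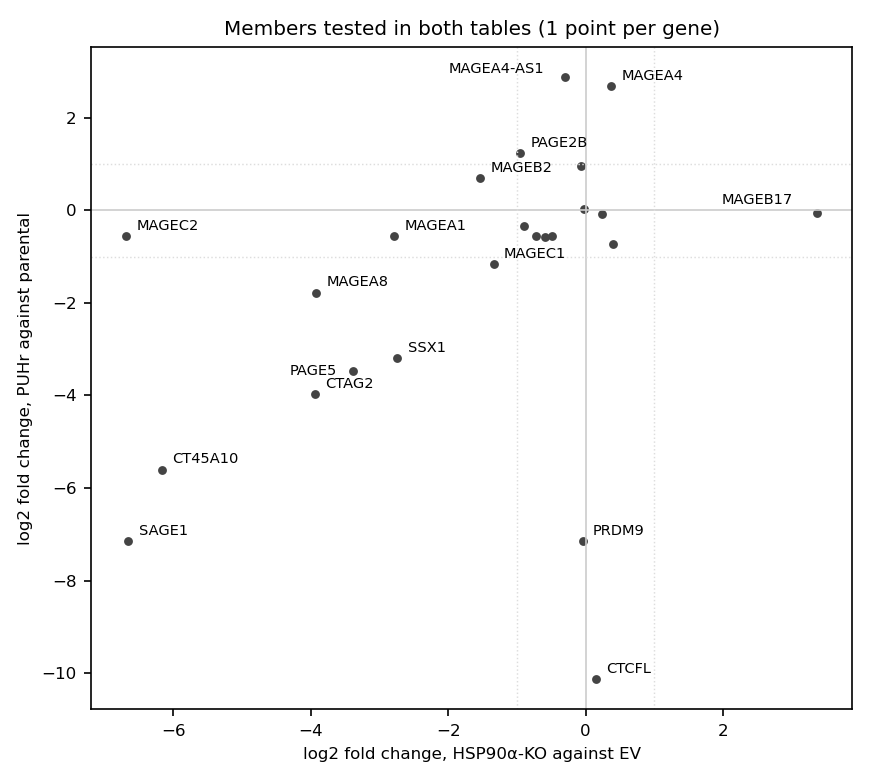
Log2 fold change of the 24 members tested in both tables, HSP90α-KO against EV on the horizontal and PUHr against parental on the vertical axis, with dotted lines at -1 and 1. SAGE1 and CT45A10 lie low on both axes, MAGEC2 only on the horizontal, CTCFL and PRDM9 only on the vertical, and MAGEA4 lies high on the vertical axis.

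By reads, few members switched fully. A gene was on in a group with at least 30 reads in every library and off with 3 or fewer. CT45A10 and MAGEA8 were on in EV and off in HSP90α-KO (2 of 18 members on in EV, and 0.272% of all 12880 genes on there). CTCFL was on in parental and off in PUHr (1 of 20, and 0.376% of all genes on in parental), and SSX1, CT45A10 and MAGEA8 were on in HSP90β-KO and off in HSP90α-KO (3 of 19, and 0.382%). The reverse of the last held for 0 of the 14 members on in HSP90α-KO (0.444% of all genes on there), and 0 of 18 were on in EV and off in HSP90β-KO (0.101%). Of the 14, 19 and 14 members on in HSP90α-KO, HSP90β-KO and PUHr, 0 were off in the control of their table, as were 0.0951%, 0.0234% and 0.132% of all genes on in these groups. In HSP90α-KO, SAGE1 had 5 to 13 reads and MAGEC2 4 or 5, above the off limit.

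In HSP90α-KO cells genes outside the member list were lower in the distal part of the X chromosome. Of the genes on X that are no members, the median log2 fold change in HSP90α-KO was 0.11 up to 60 Mb (199 genes), -0.05 from 60 to 100 Mb (86 genes), -0.80 from 100 to 130 Mb (114 genes), -0.95 from 130 to 150 Mb (55 genes, 43.6% called lower) and -0.92 beyond 150 Mb (69 genes, 39.1% called lower), against -0.01 on other chromosomes (4.42% called lower). In PUHr the same stretches of X had medians of 0.11, -0.21, -0.15, -0.13 and -0.14. Within 1 Mb of SAGE1, 16 other genes had a median of -1.25 (range -2.48 to 0.68) in HSP90α-KO, and 17 a median of -0.07 in PUHr. The changes of MAGEA3, MAGEA6, MAGEA12 and MAGEA6-DT in HSP90α-KO, -0.49 to -0.90, lay near their neighbours' medians of -0.69 to -0.79. MAGEA4 was at 0.37 beside a median of -0.70 in HSP90α-KO, and at 2.68 beside -0.48 in PUHr. SSX1 and SSX3 fell beside medians of 0.01 and -0.02. For CTCFL in PUHr, 9 neighbours had a median of 0.25 (range -0.57 to 2.88), the highest being HMGB1P1, 600 bases away. No gene outside the member list was tested within 1 Mb of MAGEC1, MAGEC2 or PRDM9. Copy number was not measured in these tables, and the part of the regional shift in the members' changes was not tested. The study reports SNP arrays of HSP90β-KO and PUHr cells, and describes none of HSP90α-KO cells.

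**Figure D4:**
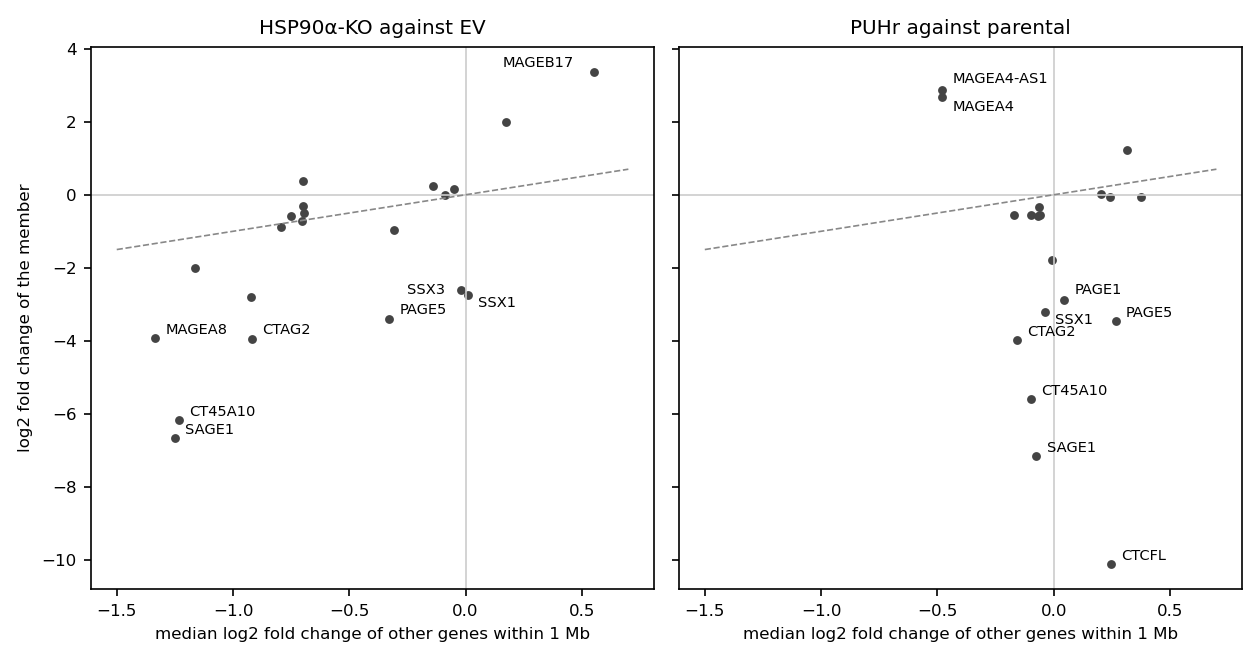
Log2 fold change of each member with at least 5 tested neighbours against the median log2 fold change of other genes within 1 Mb, in HSP90α-KO against EV (left, 21 members) and PUHr against parental (right, 19 members). The dashed line marks equal values, and members over 2 away from their neighbours are named. SAGE1, CT45A10 and MAGEA8 lie far below the line on the left beside neighbours at -1.23 to -1.33, and SAGE1, CT45A10 and CTCFL on the right beside neighbours at -0.10 to 0.25.

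Of the 30 tested members, 24 had a RefSeq promoter window (GRCh38.p14), 36 windows in all. CT45A5, CTAG2, MAGEA1, MAGEB17, SSX3 and TEX14 had none. The windows held 1 to 32 CG with a median of 13. CCGGAA was present in 8 of the 36 windows, and GGGCGG in 18. MAGEA6 and MAGEA6-DT form a second divergent pair, with starts 52 bases apart.

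Other germline and MAGE-related genes were read from lists of named genes. Of 21 tested cancer-testis genes outside the families, 6 were lower and 3 higher in HSP90α-KO (5.01% and 5.32% of all genes). PASD1 fell from 4.66 to 0.275 CPM (-4.07, adjusted p = 3.6e-10), CT55 from 1.71 to 0.256 (-2.48, adjusted p = 1.35e-08) and ACTL8, an actin-like protein, from 1.27 to 0.272 (-1.95, adjusted p = 6.82e-08), while SPAG1, a dynein assembly factor, rose from 0.687 to 2.19 CPM (1.61, adjusted p = 6.34e-06). In HSP90β-KO 2 of 21 were higher and 3 lower (1.83% and 2.65% of all genes), with ACTL8 at 5.68 CPM (2.09, adjusted p = 4.63e-08). PASD1 was at 11.3 CPM there (1.26, adjusted p = 0.008). In PUHr 5 of 20 were lower and 1 higher (4.69% and 5.37% of all genes): PASD1 fell from 11.8 to 1.80 CPM (-2.68, adjusted p = 9.66e-10), while ACRBP rose from 1.98 to 10.9 CPM (2.41, adjusted p = 1.17e-10). RHOXF2B, a reproductive homeobox gene, was at 4.87 CPM in parental and 0.0566 in PUHr cells, and ACTL8 at 3.79 and 0.182 CPM. These passed the filter through the parental group alone and are given without a p. The list medians were -0.31, -0.03 and -0.40 in the 3 comparisons with a control. Of the calls, 2 of the 6 lower and 1 of the 3 higher in HSP90α-KO, 2 of the 3 lower in HSP90β-KO and 3 of the 5 lower in PUHr were of genes that reached the threshold throughout 1 group at most, so nothing is read from these counts.

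Of the meiosis and piRNA genes, 1 of 14 was higher in HSP90α-KO, 1 of 14 lower in HSP90β-KO and 2 of 12 lower in PUHr. Of all genes 5.32%, 2.65% and 4.69% were, and a count of 1 of 14 is near that background. The call in HSP90α-KO (RAD21L1, under 1 CPM) passed the filter through HSP90α-KO alone. TEX15, needed for piRNA-directed silencing in germ cells, fell from 63.7 to 4.71 CPM in PUHr (-3.74, adjusted p = 1.05e-14) and from 33.4 to 15.1 CPM in HSP90β-KO (-1.14, adjusted p = 5.8e-15). STAG3, the meiotic cohesin subunit, fell from 99.3 to 16.8 CPM in PUHr (-2.56, adjusted p = 2.67e-15) and was at 134 CPM in HSP90α-KO against 152 in EV. Of MAGE genes expressed in many tissues and MAGE partners, MAGED1 fell from 7.38 to 0.0681 CPM in HSP90α-KO (-5.68, adjusted p = 5.46e-17) and from 13.2 to 1.04 CPM in PUHr (-3.59, adjusted p = 2.88e-10). In this list 2 of 14 were lower in HSP90α-KO, 1 of 14 lower in HSP90β-KO, and 2 of 15 lower and 1 higher in PUHr, again beside 5.01%, 2.65%, 4.69% and 5.37% of all genes, and the higher one (MAGEE1, 0.456 and 1.15 CPM) passed the filter through PUHr alone. NDN (necdin) fell in PUHr from 3.76 to 0.632 CPM (-2.42, adjusted p = 2.58e-08) and in HSP90β-KO from 1.94 to 0.498 CPM (-1.80, adjusted p = 4.2e-07). Of 36 regulators of germline gene silencing, DNA methyltransferases and Polycomb subunits among them, 1 was called higher in HSP90α-KO (DNMT3L, under 1 CPM, which passed the filter through HSP90α-KO alone), and by limma 0 of 36 in HSP90β-KO and 0 of 35 in PUHr. Of all genes 5.32% were higher and 5.01% lower in HSP90α-KO, 1.83% and 2.65% in HSP90β-KO and 5.37% and 4.69% in PUHr.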

How the data were processed

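The deposited values were log2 CPM per gene and library: reads from a stranded mRNA kit (single reads of 76 bases) were aligned by the authors to GRCh38 with STAR, counted with featureCounts and normalised with edgeR, with FastQC and MultiQC for quality. Tool versions are not given in the sources used here. Values stepped in whole reads (largest deviation 0.00138 reads), so reads per library and CPM without the prior count were recovered. Entries without a gene identifier (30 and 114) were left out. Genes with log2 CPM of at least -1 in 3 or more libraries were tested with limma 3.58.1 (R 4.3.3, moderated test with an intensity trend, 1 fit per table, no block), with Benjamini-Hochberg adjustment over all tested genes. Calls required p below 0.05 after adjustment and a change of more than 1 on the log2 scale. limma fold changes are on the deposited log2 scale with its prior count, which understates changes of low genes, and an exact permutation test of 3 against 3 libraries cannot go below p = 0.1. Read ratios carry exact 95% intervals for counting error only. Between replicates the variance over genes was 1.15 to 4.23 times that of counting error, so the intervals are too narrow for the spread between libraries. Positions and exon lengths came from GENCODE on GRCh38. The members and lists were chosen with earlier results of these data known. Values per library were given, in at least 1 table, for members called or switched in any comparison with a group mean of at least 1 CPM. The same holds for the single genes. For MAGEB10 they were given in HSP90α-KO alone, and elsewhere some members have only reads or fold changes. From each list, group means were given for up to 4 called genes with the largest change at a group mean of at least 1 CPM. No pairing of the libraries by replicate number was seen. Other pseudocounts, filters, scalings, thresholds, voom on the recovered reads and leaving out each library were tried. The procedure was tested on simulated data.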

Additional observations from a re-analysis of the deposited data

How the results depend on the processing

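Of 112 fold changes of members, 11 that were not called (-0.33 to 0.07 on the log2 scale) changed sign under some alternative, and no called one did. Counts of members moved with the treatment of low levels and with the fold threshold. With a pseudocount of 5 CPM the members higher and lower were 0 and 6 (HSP90α-KO against EV), 1 and 0 (HSP90β-KO against EV), 0 and 7 (HSP90α-KO against HSP90β-KO), and 5 were lower in PUHr. Of all 17039 genes tested in the knockout table, 195 and 151, 46 and 44, and 275 and 232 were higher and lower. Of all 16503 in the resistance table, 183 were lower. With a pseudocount of 1 CPM, 8 were lower in HSP90α-KO and 0 in HSP90β-KO against EV, beside 353 and 147 of all 17039 genes. A stricter filter left 19 members tested in each table, of which 0 were higher and 8 lower in HSP90α-KO against EV, 0 lower in HSP90β-KO, and 0 higher and 9 lower in HSP90α-KO against HSP90β-KO. Of the 12968 genes left in the knockout table, 526 and 489, 248 (lower), and 700 and 580 were called in the same order. Without a filter 5 were higher in PUHr, beside 1291 of all 33996 genes. The adjusted p alone gave 6, 8, 6 and 5 members higher and 19, 1, 20 and 15 lower. Of all tested genes it gave 4692, 2938, 5128 and 4221 higher and 4538, 2926, 5073 and 4259 lower. These are the 4 comparisons in the order of the report. With a fold beyond 2 on the log2 scale 1 was higher in HSP90β-KO, beside 87 of all 17039 genes. Fewer or more genes tested and smaller fitted folds of low genes follow from how these settings are made. With the replicate number as a block the counts were 3 and 13, 2 and 1, 3 and 14, and 3 and 10, as without it. Same-numbered libraries correlated at -0.184 to 0.066 in the knockout table and -0.024 to 0.099 in the resistance table. Differently numbered libraries correlated at -0.252 to 0.215 and -0.079 to 0.064. The ranges overlap, so no pairing by number was seen. Leaving out 1 library at a time gave 3 higher and 13 to 14 lower in HSP90α-KO against EV, 2 to 3 higher and 1 lower in HSP90β-KO, 3 higher and 14 to 15 lower between the knockouts, and 3 to 4 higher and 10 lower in PUHr, and no called member lost its call. At this depth a gene with 0 reads in a group could still hold up to 3 reads, and changes of members under 1 CPM rest on few reads.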
